A study of Homo sapiens with 96 samples.

Results

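The comparison set 3 human acute myeloid leukaemia (AML) cell lines that carry a KMT2A fusion, MOLM13, MV411 and THP1, against 3 lines without one, HL60, Kasumi1 and OCIAML3, all under vehicle. Every line was measured by paired-end RNA sequencing of total RNA after 2 or 4 days in 0.1% DMSO, with 2 replicates a day. This gave 12 libraries of KMT2A-fusion lines and 12 of the other lines, 24 of the 96 libraries of the series; the remaining libraries came from the same lines given GSK2879552 at 1 µM (an inhibitor of the demethylase KDM1A, labelled 552A), all-trans retinoic acid at 100 nM (ATRA), or the 2 drugs together (Combo). The 4 DMSO libraries of a line were summed, so each line gave 1 value and the 3 lines of a side were the replicates. Only autosomal genes were analysed. From general knowledge of these lines rather than from the labels, MOLM13 and THP1 carry KMT2A-MLLT3 and MV411 carries KMT2A-AFF1, and MOLM13 and MV411 also carry an internal tandem duplication of FLT3. Kasumi1 carries RUNX1-RUNX1T1, OCIAML3 an NPM1 mutation, and HL60 neither. Each genotype other than the KMT2A fusion is therefore held by 1 or 2 lines, every line is 1 tumour-derived culture, and line and genotype cannot be told apart.

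KMT2A encodes a histone H3 lysine 4 methyltransferase. In KMT2A fusions its amino-terminal part, which binds menin and, through a CXXC domain, unmethylated CpG dinucleotides, is joined to a partner that often belongs to the super elongation complex or the DOT1L complex. The fusions are known to sustain the HOXA genes and their cofactor MEIS1, and NPM1-mutant AML is known to express the same genes without a fusion. The promoters of 3 targets that the results turn on are shown because the CpG dinucleotides in them are the letters that the CXXC domain reads. They run from 250 bases before to 50 bases after the RefSeq start (GRCh38.p14), 5′ to 3′ on the gene's own strand, with CG in capitals. HOXA9 is at chr7:27165488-27165787 (minus strand), MEIS1 at chr2:66434875-66435174 (plus strand) and PBX3 at chr9:125747933-125748232 (plus strand).
HOXA9: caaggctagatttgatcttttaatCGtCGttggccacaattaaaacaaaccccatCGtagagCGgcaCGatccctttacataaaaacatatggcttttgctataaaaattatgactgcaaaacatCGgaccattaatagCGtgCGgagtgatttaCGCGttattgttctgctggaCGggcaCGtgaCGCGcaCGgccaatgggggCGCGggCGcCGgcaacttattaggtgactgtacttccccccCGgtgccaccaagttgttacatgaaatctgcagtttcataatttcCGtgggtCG
MEIS1: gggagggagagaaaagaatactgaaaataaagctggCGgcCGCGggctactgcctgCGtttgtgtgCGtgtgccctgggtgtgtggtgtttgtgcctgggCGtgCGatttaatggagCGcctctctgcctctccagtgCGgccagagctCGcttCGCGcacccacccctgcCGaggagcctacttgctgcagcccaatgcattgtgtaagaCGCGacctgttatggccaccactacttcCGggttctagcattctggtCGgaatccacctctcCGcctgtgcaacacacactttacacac
PBX3: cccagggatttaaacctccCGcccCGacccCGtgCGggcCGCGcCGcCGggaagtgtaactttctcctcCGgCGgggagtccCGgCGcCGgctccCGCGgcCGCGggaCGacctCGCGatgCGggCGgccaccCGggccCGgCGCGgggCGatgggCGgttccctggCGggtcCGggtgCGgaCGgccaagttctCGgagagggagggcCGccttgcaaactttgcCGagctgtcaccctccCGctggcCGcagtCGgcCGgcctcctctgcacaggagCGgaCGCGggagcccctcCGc
The windows hold 22 CG in HOXA9, 18 in MEIS1 and 43 in PBX3, against a median of 14 over 35116 RefSeq promoter windows of the same 300 bases. At least as many CG occur in 37.7% of all windows for HOXA9, 44.46% for MEIS1 and 4.983% for PBX3, so the first 2 counts are common ones. TGACAG, a core of the TALE homeodomain motif searched on both strands, occurs once in the PBX3 window and in neither of the others; 15.76% of all windows hold it. A match in these letters is a description and not a binding site.

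The line sums held 69.98 M counts in MOLM13, 92.45 M in MV411 and 80.75 M in THP1, against 102.22 M in HL60, 89.54 M in Kasumi1 and 122.13 M in OCIAML3. Single DMSO libraries held 15.14 M to 40.95 M counts, and mitochondrially encoded genes took 0.387 to 6.157% of them. The myeloid identity of the lines was visible in CD33, SPI1 and PTPRC, which were at 29.5 CPM or more in all 6 sums (CPM are counts scaled to a common library total after TMM normalisation). CEBPA, a myeloid transcription factor, had 139 to 345 CPM in the KMT2A-fusion lines, against 138 CPM in HL60, 9.18 in Kasumi1 and 274 in OCIAML3. Of 15 genes of fibroblasts, endothelium and epithelium, 4 passed the filter on low counts and were tested (KRT8, KRT18, PECAM1 and VWF). EPCAM failed that filter although it was high in Kasumi1, and COL3A1 and KRT19 were at 0 in every line. In these bulk libraries, fewer cells expressing a gene and less RNA per cell cannot be told apart.

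With lines as replicates, 0 of 20959 autosomal genes were called between the KMT2A-fusion lines and the other lines by the quasi-likelihood test of edgeR at a Benjamini-Hochberg adjusted p under 0.05 (0.0%); the smallest adjusted p was 0.5395. At an unadjusted p under 0.05 edgeR listed 1005 genes (4.8%), 588 of them higher (2.81%) and 417 lower (1.99%) in the KMT2A-fusion lines. DESeq2, at an adjusted p under 0.05, called 265 (1.26%), of which 193 were higher (0.921%) and 72 lower (0.344%). None of the class differences in DMSO described below therefore passed the main test, and they are described by the values of the lines. The median over genes of the SD among the 3 lines was 0.482 log2 CPM in the KMT2A-fusion lines and 0.565 in the other lines, while the median absolute difference between the classes was 0.375. All 3 lines of one class lay outside the range of the other for 2139 genes (10.2%), 1147 of them higher (5.47%) and 992 lower (4.73%) in the KMT2A-fusion lines. A correction for GC content and gene length that also re-centred each line turned this split to 688 higher and 1531 lower, with the median log2 fold change of all genes at -0.17 in place of -0.03. The same trend removed with the centring kept gave 1065 and 961. For a single gene the exact two-sided permutation test of 3 against 3 lines cannot go below p = 0.1, the value of every gene without overlap. Lines exchangeable between the classes would give such genes at a share of 0.1, and the share found was 10.2%. Non-overlap of a single gene is therefore a description of its lines and by itself marks no class difference.

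The lines did not fall into the classes as blocks. Over the 20959 genes, Pearson's r between log2(CPM + 0.1) values was 0.943 for MOLM13 with MV411, 0.904 for MOLM13 with THP1 and 0.915 for MV411 with THP1. THP1 was most like OCIAML3, a line of the other class, at r = 0.923, and OCIAML3 reached 0.915 with MV411 and 0.908 with MOLM13. Within the other lines r was 0.885 for HL60 with Kasumi1, 0.88 for Kasumi1 with OCIAML3 and 0.859 for HL60 with OCIAML3. These are correlations across genes of pairs that share lines, given as a description. Leaving OCIAML3 out raised the genes without overlap to 3304 higher and 3017 lower, more than leaving out any other line, whose counts ran from 1939 to 2700 higher and from 1705 to 2469 lower. With fewer lines a side, non-overlap is also easier to reach.

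HOXA9, the homeobox gene most closely tied to KMT2A fusions, had 75.5 CPM in MOLM13, 65.3 in MV411 and 54.3 in THP1, against 0.0222 in HL60, 2.46 in Kasumi1 and 59.2 in OCIAML3. The 3 KMT2A-fusion lines were alike, and OCIAML3 lay among them, so the classes overlapped. The log2 fold change of HOXA9 (ENSG00000078399.15, chromosome 7, 27162435 to 27175180) was 1.66 ± 1.86 (SE, n = 3 lines a side; adjusted p = 0.955, edgeR), and 5.69 without OCIAML3 (adjusted p = 0.413). HOXA10 had 21.9, 39.4 and 44.2 CPM in MOLM13, MV411 and THP1, against 0.0333 in HL60, 37.1 in Kasumi1 and 85.4 in OCIAML3. Its highest and its lowest line were both in the other class, and its fold change of -0.22 had the opposite sign when each line was weighted equally on the log scale (2.24 by limma-trend). The annotated spans of HOXA9 and HOXA10 overlap on the same strand, so reads of the shared part may be unassigned or split.

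HOXA11 and HOXA13, at the posterior end of the cluster, were highest in OCIAML3. HOXA13 had 10.5 CPM in MOLM13, 0.141 in MV411 and 48.8 in THP1, against 0 in HL60, 6.25 in Kasumi1 and 160.5 in OCIAML3. HOXA11 had 16.9, 0.93 and 27.6 CPM in the same KMT2A-fusion lines, against 6.40, 3.75 and 48.6. MV411 had at most 0.93 CPM of every HOXA gene except HOXA9 and HOXA10, with HOXA5 at 0.0216 CPM and HOXA6 at 0, while MOLM13 had 8.42 and 4.70 CPM of these. HOXA7 was at 1.93 CPM in MOLM13 and 0.0216 to 0.233 CPM elsewhere among the 6 lines. Of the 11 HOXA genes, 10 were tested, and none had lines that did not overlap (10.2% of all genes had). Their median log2 fold change was -0.28, against -0.03 for all genes.

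The HOXB genes that were expressed were highest in OCIAML3. HOXB3 had 0 CPM in MOLM13, 2.28 in MV411 and 1.74 in THP1, against 0.0111 in HL60, 0 in Kasumi1 and 34.0 in OCIAML3. HOXB4 had 0, 5.796 and 3.83 CPM in MOLM13, MV411 and THP1, against 0.0444, 0 and 17.3 CPM. OCIAML3 was the highest line for both, and MOLM13 was at 0 although it carries a KMT2A fusion. Without OCIAML3 the fitted log2 fold changes of HOXB3, HOXB4 and HOXB7 were positive, against lines at or near 0 counts, so their size depends on the prior count. Only these 3 of the 10 HOXB genes passed the filter on low counts; 9 of the 10 were highest in OCIAML3 and HOXB1 had 0 CPM in all 6 lines. The 18 HOXC and HOXD genes all failed the filter.

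**Figure D1:**
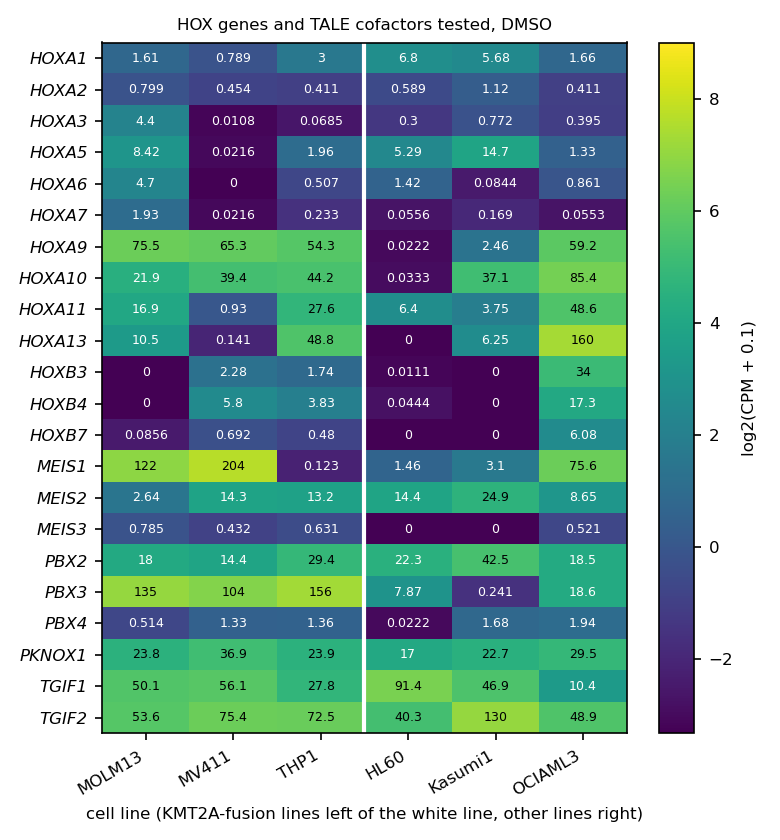
Each cell gives the TMM-scaled CPM of a gene (rows) in the summed DMSO libraries of a line (columns), coloured by log2(CPM + 0.1). HOXA9 is at 54.3 to 75.5 CPM in the KMT2A-fusion lines and at 59.2 CPM in OCIAML3, MEIS1 is at 0.123 CPM in THP1, and HOXB3 is highest in OCIAML3 at 34.0 CPM.

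MEIS1 and PBX3 encode TALE homeodomain proteins that bind DNA with HOX proteins, and they differed in which lines expressed them. MEIS1 had 122 CPM in MOLM13, 204 in MV411 and 0.123 in THP1, against 1.46 in HL60, 3.10 in Kasumi1 and 75.6 in OCIAML3. THP1 was the lowest of the 6 lines despite its KMT2A fusion and its HOXA9 level, and OCIAML3 lay nearer to MOLM13 than HL60 or Kasumi1 did. PBX3 had 135, 104 and 156 CPM in MOLM13, MV411 and THP1, against 7.87 in HL60, 0.241 in Kasumi1 and 18.6 in OCIAML3. All 3 KMT2A-fusion lines were above all 3 others, with a log2 fold change of 3.89 ± 1.30 (SE, n = 3 lines a side; adjusted p = 0.952, edgeR). PBX3 was the only one of 9 tested TALE genes whose lines did not overlap, which is near the share over all genes (10.2%).

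Among 31 genes listed as targets of KMT2A fusions, 28 were tested, 25 had a positive log2 fold change, and the median was 0.94, against -0.03 for all genes. The lines of 5 did not overlap and were higher in the KMT2A-fusion lines (5.47% of all genes), namely ADCY9, CPEB2, FLT3, MBNL1 and PBX3, and none was lower without overlap (4.73% of all genes). At an unadjusted p under 0.05 edgeR listed 7 of the 28 as higher (2.81% of all genes). FLT3, a cytokine receptor kinase, had 430.2 CPM in MOLM13, 894 in MV411 and 196 in THP1, against 16.1 in HL60, 85.1 in Kasumi1 and 107 in OCIAML3. The lines with the FLT3 duplication were the highest, and THP1 was above all other lines; the log2 fold change was 2.87 ± 0.85 (SE; adjusted p = 0.945, edgeR). CPEB2, which regulates translation at cytoplasmic polyadenylation elements, had 57.6, 69.0 and 34.0 CPM in the KMT2A-fusion lines, against 5.21, 6.88 and 10.1 CPM. Its lines were separated by more than their spread, at a log2 fold change of 2.85 ± 0.44 (SE; adjusted p = 0.5395, edgeR; DESeq2 adjusted p = 7.754e-06).

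MBNL1, a splicing regulator, had 1134, 1336 and 1058 CPM in MOLM13, MV411 and THP1, against 377 in HL60, 433 in Kasumi1 and 815 in OCIAML3. ADCY9, an adenylate cyclase, had 102, 184 and 148 CPM in the KMT2A-fusion lines, against 13.7, 16.7 and 64.5 CPM. In both genes OCIAML3 was the other line nearest to the KMT2A-fusion lines. SKIDA1 was high in MOLM13 (58.8 CPM) and THP1 (42.7 CPM) but at 0.184 CPM in MV411, against 0.0948 to 1.40 CPM in the other lines. MEF2C, a transcription factor of myeloid progenitors, and the cell cycle kinase CDK6 did not follow the classes. MEF2C had 474, 557 and 291 CPM in the KMT2A-fusion lines, against 20.2 in HL60, 488 in Kasumi1 and 132 in OCIAML3. CDK6 was highest in Kasumi1 at 2237 CPM, and its log2 fold change of 0.11 turned to -0.36 without HL60.

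CSPG4 encodes NG2, a surface antigen used to recognise KMT2A-rearranged leukaemia. It had 45.8 CPM in MOLM13, 165.9 in MV411 and 50.7 in THP1, against 0.0556 in HL60, 0.0241 in Kasumi1 and 80.2 in OCIAML3. LAMP5, a lysosomal membrane protein, had 309, 414 and 105 CPM in the KMT2A-fusion lines, against 0.0444, 0.109 and 748 CPM. Both were near absent in HL60 and Kasumi1 and high in OCIAML3, which had the most LAMP5 of all 6 lines. Without OCIAML3 their log2 fold changes were 11.03 and 11.79 in place of 1.71 and 0.15. Among 11 tested surface antigens, CLEC12A, FLT3 and LILRB4 were higher without overlap (5.47% of all genes). CLEC12A, a C-type lectin of AML blasts, had 1.19, 18.6 and 7.71 CPM in the KMT2A-fusion lines, against 0.644, 0.627 and 0.206 CPM.

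**Figure D2:**
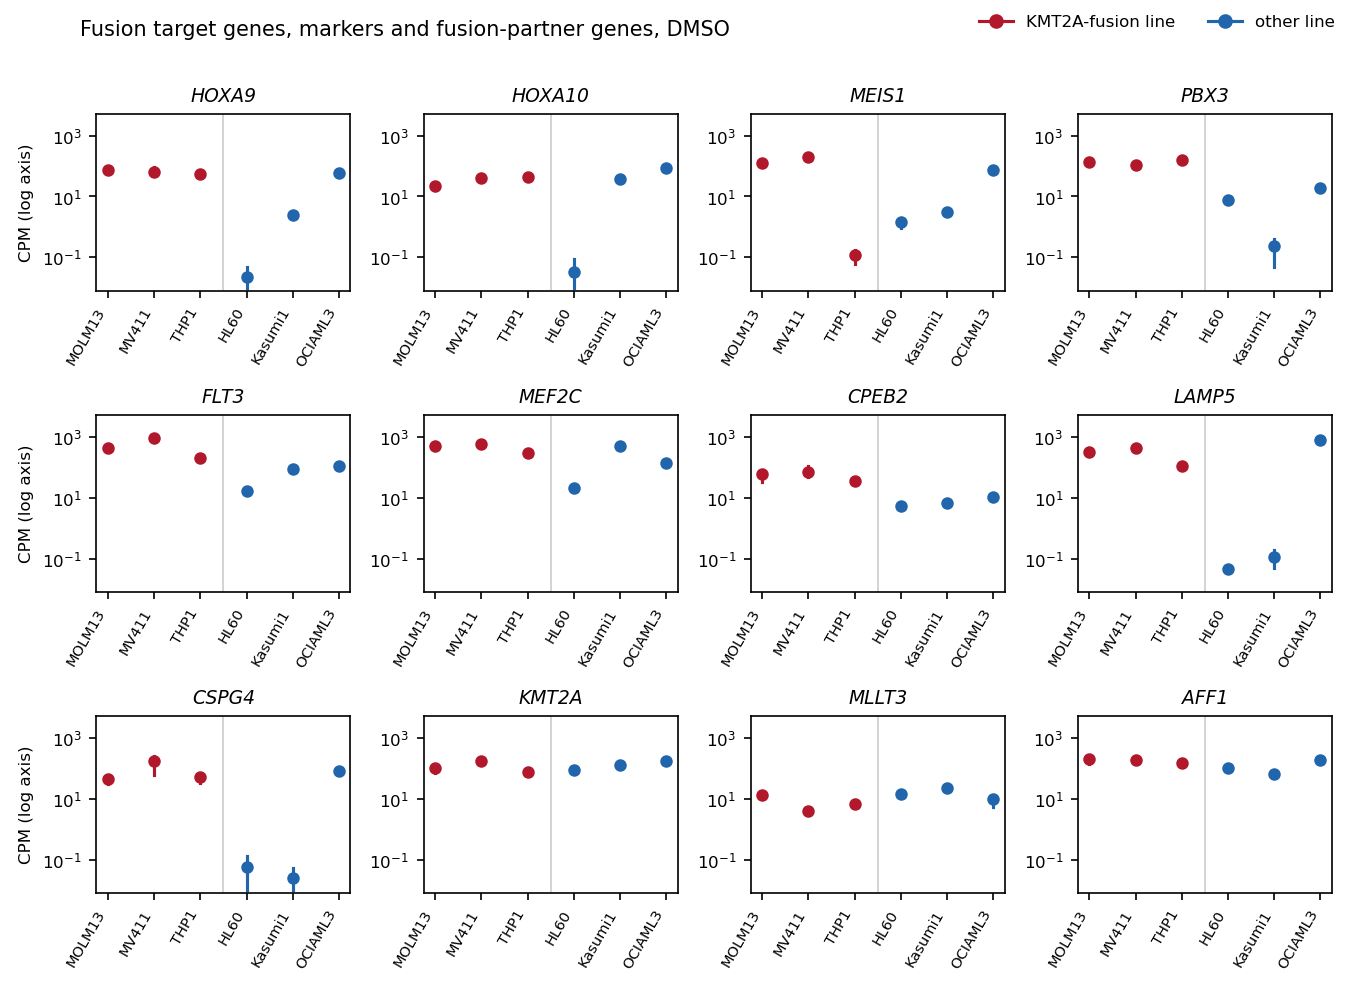
Points give the CPM (log axis) of each line's summed DMSO libraries, red for KMT2A-fusion lines at the left and blue for other lines at the right, and bars run from the lowest to the highest of the 4 libraries; values under 0.01 are drawn at 0.01. PBX3, FLT3 and CPEB2 are separated between the classes, whereas OCIAML3 is as high as the KMT2A-fusion lines in HOXA9, LAMP5 and CSPG4.

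KMT2A, its partner genes and the genes of its complexes mostly overlapped between the classes. KMT2A had 101 CPM in MOLM13, 169 in MV411 and 74.8 in THP1, against 88.1 in HL60, 132 in Kasumi1 and 167 in OCIAML3, and its log2 fold change was -0.17 ± 0.40 (SE; 95% confidence interval -1.12 to 0.79). Reads per gene cannot separate KMT2A or a partner from the fusion transcript that holds part of it. MLLT3 had 13.1, 3.94 and 6.57 CPM in MOLM13, MV411 and THP1, against 13.8, 22.9 and 9.54 CPM, and the classes overlapped. AFF1 had 199, 191 and 153 CPM in the KMT2A-fusion lines, against 101, 65.7 and 179 CPM. MEN1, which encodes menin, had a log2 fold change of -0.18 ± 0.37 and DOT1L, an H3 lysine 79 methyltransferase, 0.06 ± 0.30 (SE; confidence intervals -1.07 to 0.71 and -0.66 to 0.79). Among 13 KMT2A, menin and COMPASS genes only ASH2L was without overlap, which is near the share over all genes (10.2%). It had 117, 119 and 114 CPM in the KMT2A-fusion lines, against 72.1, 70.9 and 98.5 CPM. Among 15 genes of fusion partners and the elongation and DOT1L complexes only AFF3 was without overlap, also near that share. It had 98.4, 81.7 and 87.6 CPM, against 0.0444 in HL60, 0.133 in Kasumi1 and 31.3 in OCIAML3. KDM1A, the target of GSK2879552, had 169, 173 and 224 CPM in the KMT2A-fusion lines, against 292, 351 and 159 CPM.

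Monocyte and macrophage genes were the list with the most members above all other lines. Of 34 genes 27 were tested, 26 had a positive log2 fold change with a median of 2.04, and 11 were higher without overlap (5.47% of all genes); none was lower without overlap. At an unadjusted p under 0.05 edgeR listed 7 of the 27 as higher (2.81% of all genes). At an adjusted p under 0.05 DESeq2 called 5 of them higher (0.921% of all genes). LYZ, lysozyme, had 506 CPM in MOLM13, 537 in MV411 and 442 in THP1, against 2.17 in HL60, 8.02 in Kasumi1 and 62.4 in OCIAML3. The 3 KMT2A-fusion lines were alike and far above OCIAML3, the highest of the others; the log2 fold change was 4.35 ± 1.24 (SE; adjusted p = 0.945, edgeR). MPEG1, a pore-forming protein of phagocytes, had 6.01, 18.6 and 7.13 CPM, against 0.0889, 0.0844 and 0.0948 CPM. It was near absent in all 3 other lines, OCIAML3 included, at a log2 fold change of 6.87 ± 0.75 (SE; adjusted p = 0.5395, edgeR; DESeq2 adjusted p = 5.969e-19).

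CSF1R, the receptor of macrophage colony-stimulating factor, had 34.4, 56.1 and 149.7 CPM in MOLM13, MV411 and THP1, against 0.755 in HL60, 11.1 in Kasumi1 and 8.89 in OCIAML3. CCR2, a chemokine receptor of monocytes, had 110.3, 152.5 and 445 CPM, against 0.1, 0.109 and 59.2 CPM, and MS4A7 had 85.8, 83.1 and 123 CPM, against 0.167, 21.6 and 71.9 CPM. In CCR2 and MS4A7, OCIAML3 came next to the KMT2A-fusion lines. ITGAM, the integrin CD11b, was high in MOLM13 (30.8 CPM) and THP1 (33.4 CPM) but only 2.75 CPM in MV411, against 2.44, 1.19 and 1.94 CPM, so that its class separation rests on a small gap. IRF8, a monocyte transcription factor, overlapped: 279.8, 548 and 766 CPM, against 0.1 in HL60, 10.2 in Kasumi1 and 1119 in OCIAML3. CD14 had 0.4 CPM in MOLM13, 0.13 in MV411 and 8.77 in THP1, against 0.0556, 0.0241 and 0.806 CPM. S100A9 was at 103 CPM in THP1 and at most 1.19 CPM in MOLM13 and MV411, against 10.6, 0.35 and 5.61 CPM.

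**Figure D3:**
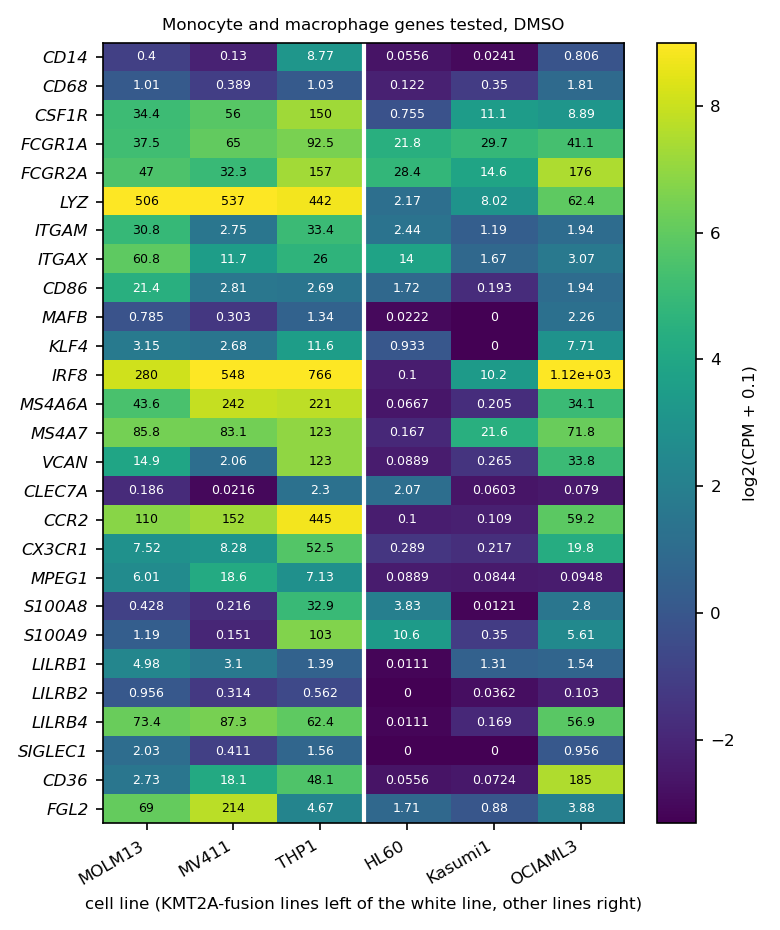
Each cell gives the CPM of a tested monocyte or macrophage gene (rows) in a line (columns), coloured by log2(CPM + 0.1). LYZ lies between 442 and 537 CPM in the KMT2A-fusion lines and at most at 62.4 CPM in the others, while IRF8 is highest in OCIAML3 at 1119 CPM.

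Granule genes mostly overlapped between the classes. Of the 12 azurophil granule genes 7 had a positive log2 fold change and 5 a negative one, with a median of 0.65, against -0.03 for all genes. AZU1, azurocidin, was without overlap at 183, 110.2 and 583 CPM in MOLM13, MV411 and THP1, against 6.08 in HL60, 37.3 in Kasumi1 and 74.3 in OCIAML3. It was the only one of 12 azurophil granule genes without overlap, which is near the share over all genes (10.2%). MPO, myeloperoxidase, had 199.6, 7.80 and 16.9 CPM in the KMT2A-fusion lines, against 2565 in HL60, 11810 in Kasumi1 and 1.67 in OCIAML3. Its high values belonged to HL60 and Kasumi1, and OCIAML3 was the lowest line. None of 7 tested genes of specific and gelatinase granules was without overlap (10.2% of all genes were). Of these 7, 5 had a positive log2 fold change and 2 a negative one, with a median of 1.78. Among stem and progenitor genes, high values in the other lines belonged to single lines, with ERG at 80.6 CPM and BAALC at 69.3 CPM in Kasumi1 and HMGA2 at 212 CPM in HL60. Of the 16 tested, 0 were without overlap (10.2% of all genes were).

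Of 29 tested interferon response genes, 5 were higher without overlap (GBP2, GBP5, IFI44L, MX1 and OAS1; 5.47% of all genes were) and the median log2 fold change was 0.48. Libraries of a line differed widely in some of these: IFI44L ran from 0.101 to 10.95 CPM in MOLM13 and from 0.0449 to 13.6 CPM in MV411, and its log2 fold change of 4.23 was 3.43 without MV411 day 4 replicate 2. MX1 had a log2 fold change of 2.66 at day 4 and 1.25 at day 2, and OAS1 2.43 at day 4 and 0.63 at day 2. GBP5, a guanylate-binding protein, had 3.16, 1.29 and 12.8 CPM in MOLM13, MV411 and THP1, against 0.0333, 0.0483 and 0.142 CPM. Of 15 myeloid cytokine receptors CSF1R, FLT3, IFNGR1 and IL10RA were higher without overlap (5.47% of all genes), and KIT was high in Kasumi1 alone (1918 CPM, against at most 24.4 CPM in the other 5 lines). PECAM1, listed with the endothelium but also known in monocytes, had 195, 165.9 and 284 CPM in the KMT2A-fusion lines, against 6.64, 2.26 and 29.2 CPM. KRT8, a keratin, had 1.76, 5.71 and 2.28 CPM, against 0.278, 0.217 and 0.292 CPM. These 2 of the 4 tested members of the list of fibroblast, endothelial and epithelial genes were higher without overlap (5.47% of all genes). KRT18, the partner of KRT8, had 7.08, 12.4 and 0.274 CPM, against 0.0222, 0 and 0.316 CPM, and overlapped. The 11 untested members were at most 0.768 CPM in the KMT2A-fusion lines, and in the other lines at most 0.34 CPM except EPCAM, which had 122.9 CPM in Kasumi1. The part of other cells in these values was not tested.

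Cell cycle genes gave 2 of 30 without overlap in each direction, CCNE2 and MCM4 higher (5.47% of all genes) and MCM6 and MCM7 lower (4.73%), which is near the shares over all genes. The 21 tested MYC and ribosome biogenesis genes gave none, though 19 had negative log2 fold changes, with a median of -0.23. Among cell cycle inhibitors RBL2 was without overlap by a narrow margin, and CDKN2A had 0 CPM in MOLM13 and THP1 and 34.1 CPM in MV411, against 8.72, 11.0 and 4.05 CPM. The remaining lists had at most 1 member without overlap in a direction, where 5.47% of all genes were higher and 4.73% lower. Those members included, beside FLT3 already given, SPRY2 among 18 FLT3 and STAT5 target genes (lower), FOS among 28 myeloid transcription factors and NKG7 among 10 lymphoid genes (higher), and PELI1 among 8 genes associated with RUNX1-RUNX1T1 (lower).

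Outside the lists, the genes with the smallest p among abundant protein-coding genes without overlap included several that were near absent in 1 class. KCNQ3, a potassium channel subunit, had 7.72 CPM in MOLM13, 19.5 in MV411 and 39.99 in THP1, against 0.0222, 0.0241 and 0.0553 CPM, and had the smallest p of the table (log2 fold change 9.28 ± 1.00, SE; adjusted p = 0.5395, edgeR). GAS6, a ligand of the TAM receptor kinases, had 91.8, 60.4 and 151 CPM in the KMT2A-fusion lines, against 4.52, 1.57 and 5.14 CPM. MTMR11, a myotubularin-related protein, had 37.4, 30.8 and 21.6 CPM, against 1.71, 0.676 and 1.99 CPM. In these genes OCIAML3 was as low as HL60 and Kasumi1, unlike in the HOXA genes. ZNF334, a zinc finger gene, had 12, 16.7 and 2.495 CPM in the KMT2A-fusion lines, against 1 count in all 3 other lines together; the ratio of CPM from the class sums was 3263, with an exact 95% interval of 585 to 128900 that covers counting error only. GABRA4, a GABA receptor subunit, had 2.86, 10.1 and 4.25 CPM, against 2 counts in the other lines (ratio 918, interval 254 to 7584). ORM1 had 16.3, 1.36 and 6.80 CPM, against 2 counts, and is uncertain because of its near-identical neighbour ORM2. MEIOB, PTPRO, PPP1R14C and ZNF528 were the other higher genes of this kind, at 2.02 to 70.7 CPM in the KMT2A-fusion lines and at most 0.311 CPM in the others.

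On the lower side, WASF3, an actin regulator, had 0.471 CPM in MOLM13, 0.314 in MV411 and 0.11 in THP1, against 19.0 in HL60, 16.7 in Kasumi1 and 7.74 in OCIAML3. ARHGAP5 had 1.23, 0.53 and 0.603 CPM, against 51.5, 94.3 and 8.16 CPM. SERPINA1, alpha-1 antitrypsin, had 0.385, 2.16 and 1.10 CPM, against 31.6, 52.4 and 8.41 CPM. In all 3 genes OCIAML3 was the other line nearest to the KMT2A-fusion lines. AES, a co-repressor of the Groucho family, had 48.8, 34.8 and 45.7 CPM in MOLM13, MV411 and THP1, against 128, 131 and 139 CPM. It was among the most uniform, with a log2 fold change of -1.62 ± 0.24 (SE; adjusted p = 0.5395, edgeR; DESeq2 adjusted p = 4.745e-05). RAB42 and BAMBI were at most 0.836 CPM in the KMT2A-fusion lines and at least 5.06 CPM in the others. NET1, UNC13D, MCM10, TSPAN14, TENT4A and AGTRAP were abundant in both classes, with log2 fold changes between -1.87 and -1.20.

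**Figure D4:**
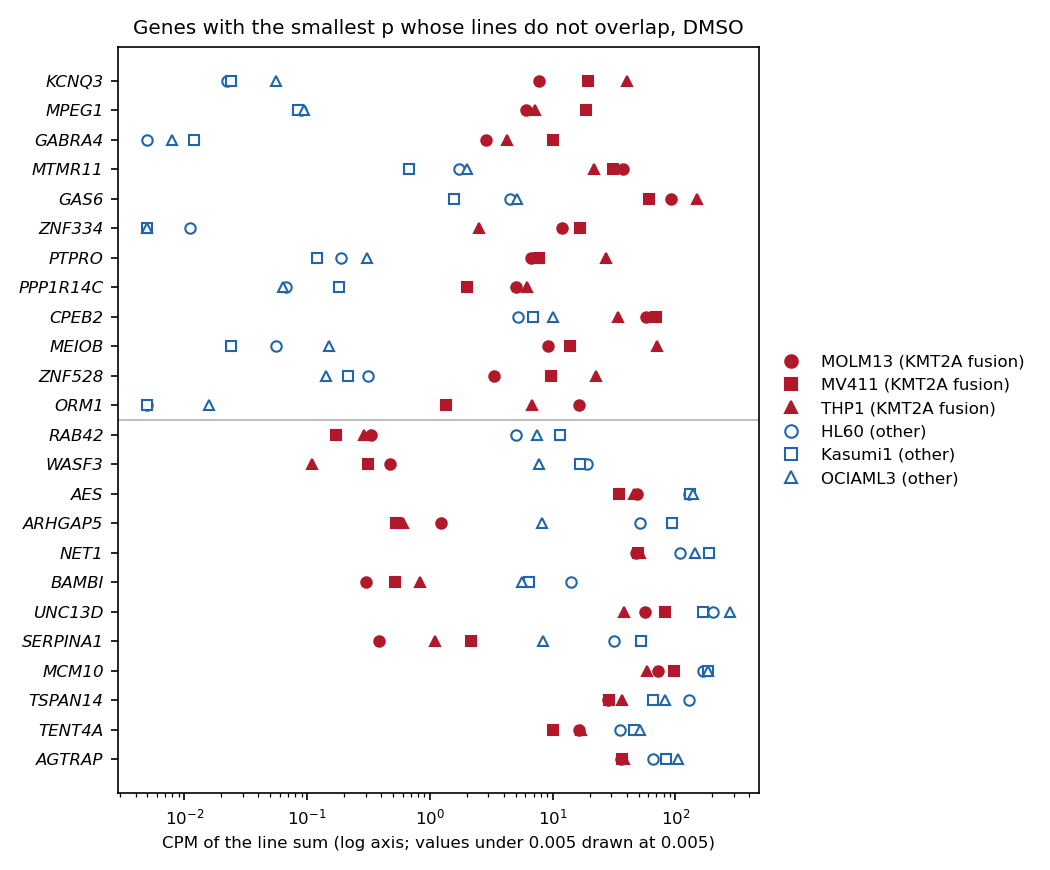
Points give CPM (log axis) of each line for the 12 genes with the smallest p that were higher (top) and the 12 that were lower (bottom) without overlap; filled red marks are KMT2A-fusion lines and open blue marks the other lines, and none passed the edgeR test. MPEG1 lies between 6.01 and 18.6 CPM in the KMT2A-fusion lines and under 0.1 CPM in the others.

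Genes without overlap were unevenly spread over the chromosomes. On chromosome 8, 98 of 819 tested genes were higher without overlap (11.97%, against 5.47% of all genes) and 10 lower, and on chromosome 10, 93 of 841 were lower (11.06%, against 4.73%) and 11 higher. The median deviation of chromosome 8 genes from the mean of the 6 lines was 0.59 in MOLM13, 0.10 in MV411 and 0.05 in THP1, against -0.49 in HL60, -0.33 in Kasumi1 and 0.03 in OCIAML3 (log2 CPM). On chromosome 10 it was 0.01, 0.08 and -0.89, against 0.22, 0.64 and 0.02. The largest deviations were those of MOLM13 and HL60 on chromosome 8 and of THP1 and Kasumi1 on chromosome 10. On chromosome 18 the median log2 fold change was -0.44, with HL60 at 0.93 and the other 5 lines between -0.27 and -0.06. Less marked skews included chromosomes 6, 13 and 19 (8.708, 8.665 and 8.944% higher, 1.685, 2.81 and 2.817% lower) and chromosome 17 (3.265% higher, 7.973% lower). NET1, BAMBI, MCM10 and TSPAN14 lie on chromosome 10 and KCNQ3, ASH2L, CCNE2 and MCM4 on chromosome 8. FLT3 and GAS6 (higher) and WASF3 and SPRY2 (lower) lie on chromosome 13. The part of a chromosome's level in the values of these or other named genes was not tested.

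**Figure D5:**
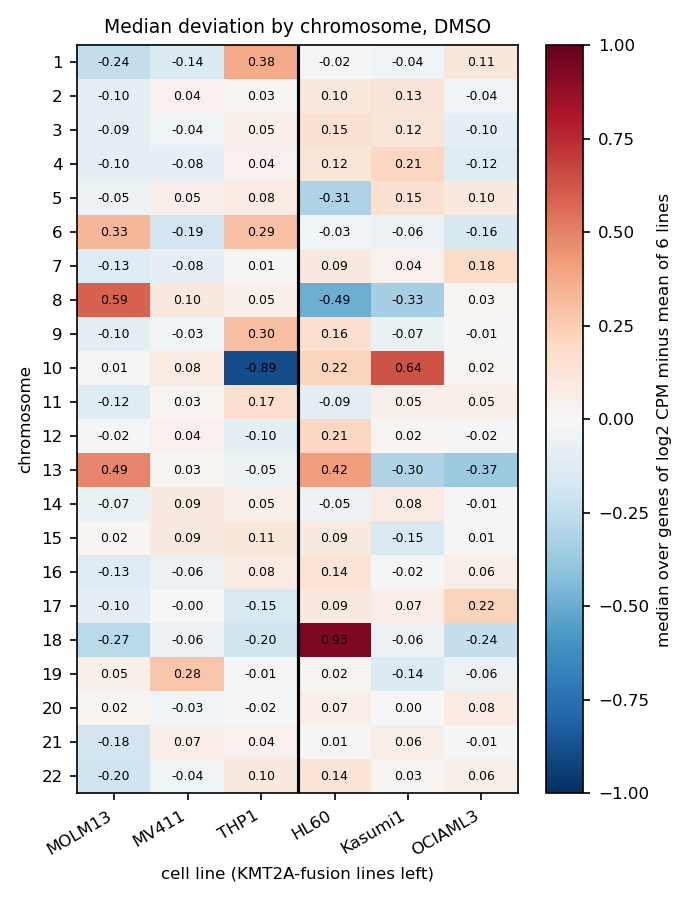
Colours and numbers give the median deviation, over autosomal genes whose log2 CPM averaged 1 or more, of log2(CPM + 0.1) from the 6-line mean, by chromosome (rows) and line (columns). THP1 is at -0.89 on chromosome 10 and HL60 at 0.93 on chromosome 18.

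The same lines under the drugs gave the contrast in libraries outside the DMSO sums. By edgeR 0 genes were called in the 552A, ATRA and Combo arms (0.0% each), with 1096 (5.06%), 944 (4.41%) and 961 (4.48%) at an unadjusted p under 0.05. DESeq2 called 284 (1.31%), 230 (1.08%) and 241 (1.12%). Of 1113 genes higher without overlap in DMSO and tested in the 552A arm, 652 were so there too, 58.58% of the DMSO genes and 57.6% of the 1132 genes of that arm. The ATRA arm shared 440 (40.52% and 46.07%) and the Combo arm 431 (40.36% and 42.42%). Of the genes lower without overlap, 535 were shared with the 552A arm (54.87% and 47.85%), 294 with the ATRA arm (30.5% and 30.72%) and 307 with the Combo arm (32.18% and 32.8%). The lines are the same in every arm, so this is no independent set. FLT3 had log2 fold changes of 2.74, 1.58 and 2.25 in the 552A, ATRA and Combo arms and HOXA9 1.64, 2.03 and 1.86. MPEG1 had 5.73, 2.64 and 3.60, ITGAM 2.11, -0.49 and 0.05, and RAB42 -4.09, -2.19 and 0.98, so the last 2 did not keep their sign.

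Whether the class difference was another under a drug than in DMSO was tested as an interaction with the line as a block, over 25898 genes. For 552A, edgeR called 0 genes (0.0%), with 341 at an unadjusted p under 0.05 (1.32%), and DESeq2 called 1 (0.00386%). For ATRA edgeR called 1 gene (0.00386%), with 1473 unadjusted (5.69%), and DESeq2 18 (0.0695%). For Combo edgeR called 3 (0.0116%), with 1705 unadjusted (6.58%), and DESeq2 72 (0.278%). TLE6, a co-repressor of the Groucho family, was called under ATRA and under Combo. In Combo it had 57.6 CPM in MOLM13, 14.0 in MV411 and 26.2 in THP1, against 0.345, 0.0439 and 0.235 CPM in DMSO. In the other lines it had 8.12 CPM in HL60, 0.613 in Kasumi1 and 14.6 in OCIAML3 with Combo, against 2.17, 0.247 and 8.85 CPM in DMSO. It was higher with Combo in every line, and the class difference changed, with an interaction of 6.01 ± 0.62 log2 units (SE; adjusted p = 0.00121, edgeR), and 5.03 ± 0.61 for ATRA (adjusted p = 0.0111). The Combo call held without any 1 line, whereas the ATRA call was lost without Kasumi1, MV411, OCIAML3 or THP1 (adjusted p 0.0855 to 0.196).

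NQO2, a quinone reductase, had 44.1, 54.5 and 77.6 CPM in MOLM13, MV411 and THP1 with Combo, against 15.1, 20.3 and 22.9 CPM in DMSO. In HL60, Kasumi1 and OCIAML3 it had 38.9, 57.3 and 17.6 CPM with Combo, against 50.6, 60.05 and 19.1 CPM. With Combo it was higher in the 3 KMT2A-fusion lines and lower in the 3 others, with an interaction of 1.76 ± 0.26 (SE; adjusted p = 0.0481, edgeR). The call was lost when any 1 line was left out (adjusted p 0.0519 to 0.195). With 552A alone NQO2 had 31.61, 44.62 and 68.98 CPM in the KMT2A-fusion lines, against 48.96, 59.95 and 17.85 CPM in the others. Its 552A interaction of 1.32 ± 0.26 (SE) missed the edgeR call, but DESeq2 called it (adjusted p = 0.0446). FAM201A, an antisense RNA whose reads may belong to its partner, had 0.133, 8.17 and 4.95 CPM in the KMT2A-fusion lines with Combo, against 0.776, 15.4 and 19.1 CPM in DMSO. In HL60 it had 0.105 CPM with Combo, against 9.05 CPM in DMSO, and it was at most 0.0247 CPM in Kasumi1 and OCIAML3. The interaction of 4.75 ± 0.59 (SE; adjusted p = 0.00744, edgeR) was 1.96 without HL60 (adjusted p = 0.793), and the call was also lost without Kasumi1 (adjusted p = 0.0784) and with DESeq2 (adjusted p = 0.0566). AES, which lies on chromosome 19 as TLE6 does, had 117, 109.8 and 116 CPM in the KMT2A-fusion lines with Combo, against 49.1, 35.3 and 46.0 CPM in DMSO. Its interaction of 1.48 ± 0.23 missed the call (adjusted p = 0.0663, edgeR).

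Between days 2 and 4 of DMSO, 2 of 20533 genes had a class difference that changed by edgeR (0.00974%; 1701 or 8.28% at an unadjusted p under 0.05, and 2 by DESeq2), VWF, von Willebrand factor, and EMP1, an epithelial membrane protein. VWF in HL60 had 3.66 CPM at day 4 and 0.227 CPM at day 2, while the KMT2A-fusion lines had 1.27 to 1.60 CPM at day 4 and 1.20 to 2.54 CPM at day 2. EMP1 in HL60 had 18.2 CPM at day 4 and 1.09 CPM at day 2. Both calls were at an adjusted p of 0.0495 and both were lost without HL60, MOLM13 or MV411 (adjusted p 0.515 to 1.0) and with DESeq2 size factors in edgeR (adjusted p = 0.108).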

How the data were processed

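RNA was measured in 24 DMSO libraries of 6 AML lines, and in 72 drug-treated libraries used for the other arms and the interactions. The authors deposited raw whole-number counts per gene. The submitters' processing notes name GRCh38 as the build, and HTSeq 0.6.0, STAR 2.4.2a and Trimmomatic 0.36 as tools; the annotation and the strand setting are not given in the sources used here. Nothing in the labels states that replicates were separate cultures, so libraries of a line were summed. Rows were matched by Ensembl identifier to GENCODE release 29 (56994 of 60552 rows, 54123 autosomal); the 3558 others held 0.0417% of the counts and were left out. Coordinates are those of GENCODE on GRCh38. No 2 replicates agreed within sampling noise, with a chi-square per degree of freedom of at least 9.902.

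Line sums were tested in R 4.3.3 with edgeR 4.0.16 (TMM, filterByExpr, quasi-likelihood F test, Benjamini-Hochberg adjustment over all autosomal genes tested, called at 0.05), with DESeq2 1.42.0 and limma 3.58.1 as alternatives; the test had 4 residual degrees of freedom. Interactions used sums of line and treatment, or line and day, with the line as a block. DESeq2 gave no adjusted p to 632 genes, which were counted as not called. SEs were taken from the log2 fold change and its F statistic. Intervals of count ratios are exact at 95% and cover counting error only. The fits were tested on simulated data.

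The members, the 30 gene lists and the named genes were chosen with earlier results of these data known. The named genes were 16 genes tied to KMT2A fusions, the 12 of smallest p per direction among abundant protein-coding genes without overlap, since none was called, up to 3 members of each list, and called interaction genes; some are not described. Further list members were named after their values were seen. The alternatives were other scaling, filter, tool, days, gene sets, GC and length corrections, leaving out lines, and a replicate block. Some list members are not reported here.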

Additional observations from a re-analysis of the deposited data

Results flagged for a closer look

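These 6 results are differences of an effect between the KMT2A-fusion lines and the other lines that passed the interaction test of edgeR (log2 units, n = 3 lines a side). TLE6 differed by 5.03 under ATRA and by 6.01 under Combo, with higher values than in DMSO in all 3 KMT2A-fusion lines. NQO2 differed by 1.76 under Combo, and by 1.32 under 552A, where edgeR did not call it. FAM201A differed by 4.75 under Combo, and by 1.96 without HL60. Between day 4 and day 2 of DMSO, VWF differed by -3.95 and EMP1 by -3.02; in both genes HL60 had the largest move of the 6 lines.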

How the results depend on the processing

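For the DMSO contrast the count of called genes, 0 by edgeR, was 265 by DESeq2, 5 with all chromosomes tested and 0 to 1 with a line left out. It stayed at 0 with DESeq2 size factors, no filter, either day alone, limma-trend, both GC and length corrections and without MV411 DMSO day 4 replicate 2. The replicate number as a block, with 12 sums of line and replicate in voom, gave 16 genes, and the same fit with no replicate block 40; both count the 12 sums as residual degrees of freedom although sums of a line correlate at 0.931 and 0.898. Same-numbered libraries deviated together at 0.00666 to 0.428 over 66 pairs, all 66 over 0 and 47 over 0.1; the criterion that every pair exceed 0.1 was not met and the labels state no pairing, so the fit without the block was kept, and a shared replicate effect was not tested. DESeq2 called 284, 230 and 241 genes in the 552A, ATRA and Combo arms, and leaving out a line gave 0 to 1 in the ATRA arm. For the interactions DESeq2 called 1, 18 and 72 genes, and leaving out a line gave 0 to 2 for ATRA and 1 to 13 for Combo. The count for the day interaction was 0 with DESeq2 size factors, 114 with no filter and 0 to 239 with a line left out (239 without THP1). Genes without overlap, 1147 higher and 992 lower, became 688 and 1531 under the planned GC and length correction, which also re-centres each line on its mean. A version that keeps the TMM centring was added after that shift was seen and gave 1065 and 961. Leaving out a line gave 1939 to 3304 higher and 1705 to 3017 lower (both highest without OCIAML3), and leaving out MV411 DMSO day 4 replicate 2 gave 1074 and 953. The likeness of THP1 and OCIAML3 was 0.948 with no filter, and 0.909 on a scale added after seeing the data, edgeR log CPM with a prior count of 2. The causes of these differences were not tested.

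Log2 fold changes that turned sign were all of genes that missed the call. With limma-trend, voom with no replicate block and voom with the replicate block, HOXA10 had 2.24, 2.62 and 2.28, HOXA3 -0.35, -1.60 and -1.44, HOXB3 0.13, 0.45 and 0.34, HOXB7 0.19, 1.40 and 1.47, and HOXB4 1.16, 1.26 and 0.76. EMP1 had 0.69 and 0.045 in limma-trend and voom with no replicate block, and 2.04 at day 2 alone. CDK6 had -0.034 with the GC correction and -0.087 at day 2, DOT1L -0.10 with the GC correction and -0.18 at day 4, and MEN1 0.037 at day 2. With a line left out, the ranges that crossed 0 among the genes named by the rule were -0.80 to 0.90 for HOXA10, -0.36 to 1.06 for CDK6, -0.55 to 0.064 for KMT2A, -0.44 to 0.038 for MEN1, -0.12 to 0.23 for DOT1L, -0.44 to 11.79 for LAMP5 and -3.63 to 2.19 for HOXA3. They were -3.71 to 7.53 for HOXB3, -2.85 to 8.11 for HOXB7, -1.60 to 7.06 for HOXB4, -7.67 to 1.34 for BAALC and -2.99 to 1.20 for POU4F1. They were -0.32 to 0.93 for TFRC, -1.67 to 3.08 for EPX, -2.84 to 3.65 for HLA-DPA1, -1.45 to 0.040 for PMAIP1 and -1.29 to 2.60 for EMP1. For the identity markers SPI1 and PTPRC they were -0.29 to 0.53 and -0.43 to 0.044. The fitted values of the HOXB genes without OCIAML3 set the KMT2A-fusion lines against lines at or near 0 and are no bounds.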
